A study of Homo sapiens with 10 samples.

Results

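The transcription factors described here are 9 homeobox genes that pattern the anterior neural plate: SIX3, SIX6, OTX1, OTX2, LHX2, EMX2, PAX6, RAX and HESX1. They were taken by name, as a list of functionally related genes chosen with earlier results of these data known, and make up 9 of the 24050 genes listed in either of the count tables. Each table lists 8 of them, since SIX6 has no row in the HEK293T table and RAX has no row in the NPC table. The filter for testing was a count, summed over the libraries, of at least the number of libraries. It was met by 8 members in NPCs and by 6 in HEK293T cells, where OTX2 and RAX had 0 counts in all 6 libraries.

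Stranded mRNA of a pair of human cell systems was sequenced, each as WT and after CRISPR-Cas9 deletion of ZNF274, a KRAB zinc finger protein with a role in heterochromatin. HEK293T, an embryonic kidney line, gave 3 WT libraries (15, 16 and 17) and 3 KO libraries (18, 19 and 20). Neural progenitor cells (NPCs) were differentiated from H1 embryonic stem cells through embryoid bodies in a neural induction medium and gave 2 WT libraries (3 and 5) and 2 KO libraries (1 and 2), with no other agent or time point in the labels. KO cells were homozygous clones, made with a pair of guide RNAs flanking the gene and grown from sorted single HEK293T cells or from picked H1 colonies. The labels do not say which clone a library came from, so p-values measure the spread between these libraries, and with 2 libraries per NPC group differences between clones and effects of the deletion cannot be told apart. Libraries held 18621266 to 23035490 counts on genes in NPCs and 21421013 to 32285876 in HEK293T cells. ZNF274 itself had 491 and 496 counts in WT NPCs and 0 in both KO libraries, and 445, 423 and 492 counts in WT HEK293T cells and 0 in all 3 KO libraries, as labelled.

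Homeobox factors bind DNA through the homeodomain, whose last helix lies in the major groove and reads the target sequence. At the anterior end of the neural plate OTX2 and OTX1 mark forebrain and midbrain, SIX3 and HESX1 mark the most anterior part, and RAX, PAX6, SIX3, SIX6 and LHX2 together are known as eye-field factors. Slightly later EMX2, LHX2 and PAX6 pattern the cortex along its axes, with PAX6 high rostrally and EMX2 high caudally. Loss of these factors in vertebrate embryos reduces or removes eyes, telencephalon or pituitary, which is why they serve as regional markers of neural progenitors in culture.

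The stretch of the homeobox that encodes the recognition helix shows how the family divides. It is printed as DNA, 5′ to 3′, from codon 42 to codon 58 of the 60-codon homeobox, read from GENCODE release 44 transcripts for 7 of the 9 members, and the capitals mark codon 50, the position best known for setting which bases a homeodomain prefers. SIX3 and LHX2 are named without this sequence.
OTX1: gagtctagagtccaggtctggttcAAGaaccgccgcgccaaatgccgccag
OTX2: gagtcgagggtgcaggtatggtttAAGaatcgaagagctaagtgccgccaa
SIX6: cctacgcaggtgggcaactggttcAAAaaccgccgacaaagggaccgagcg
EMX2: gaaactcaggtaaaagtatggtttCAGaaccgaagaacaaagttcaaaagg
RAX: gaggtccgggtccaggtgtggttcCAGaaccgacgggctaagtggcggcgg
HESX1: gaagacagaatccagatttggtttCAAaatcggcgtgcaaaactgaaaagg
PAX6: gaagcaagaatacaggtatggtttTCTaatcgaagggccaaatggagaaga
Codon 50 was AAG in OTX1 and OTX2 and AAA in SIX6, CAG in EMX2 and RAX and CAA in HESX1, and TCT in PAX6. Over the 180 bases of the whole homeobox, OTX1 and OTX2 shared 142 (78.9%), the closest of the 21 pairs, and the next pair, OTX1 with RAX, shared 125 (69.4%). SIX6 stood farthest from the rest, with 54 bases shared with PAX6 and 77 (42.8%) with OTX1, its closest.

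Deletion of ZNF274 went with lower counts of nearly the whole group in NPCs. SIX3 and SIX6 had 0 counts in both KO libraries, LHX2 was near the floor of 3 counts, and OTX1, OTX2 and PAX6 fell to between 0.245 and 0.405 of their WT level while remaining well detected. By edgeR's quasi-likelihood test, 6 of the 8 tested members were called lower (adjusted p below 0.05 and FC above 2) and 0 were called higher, where 8.36% of 20577 genes were called lower and 8.45% higher. Both KO libraries lay below both WT libraries for 8 of 8 members, an order that 33.8% of all tested genes showed. The median log2 FC of the 8 members was -2.29, or -1.80 with SIX3 and SIX6 set at the floor, while that of all tested genes was -0.02. In bulk RNA a loss of cells of one type and a loss of RNA per cell cannot be told apart.

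**Figure D1:**
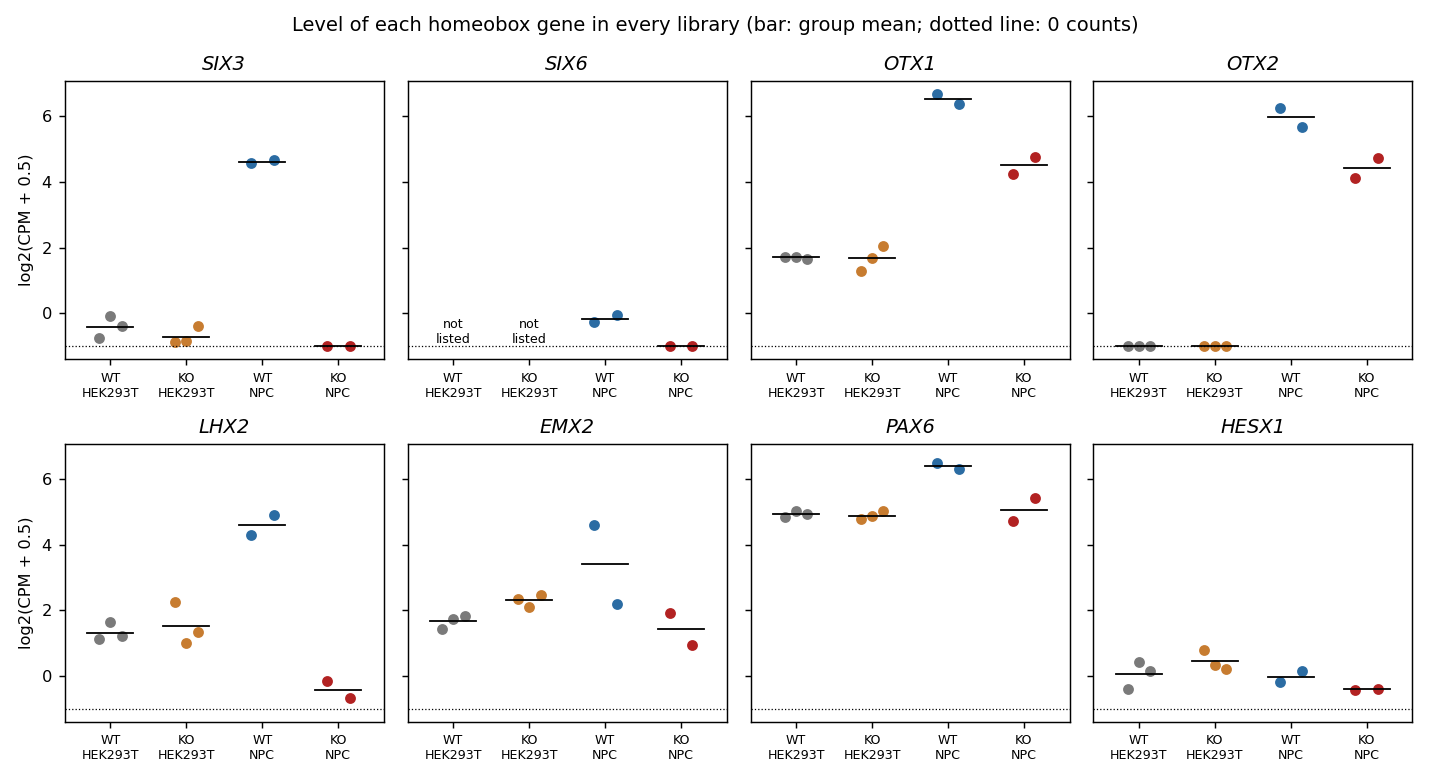
Level of 8 members in each of the 10 libraries, as log2(CPM + 0.5), where CPM is the TMM-scaled count per 1000000 counts within each table. Each point is a library, the bar is the mean of its group and the dotted line is a count of 0. In NPCs both KO points lie below both WT points in all 8 panels, while in HEK293T cells the WT and KO points overlap in all panels that hold counts except EMX2.

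SIX3, which represses posteriorising signals in the anterior plate, lies on the plus strand of chromosome 2 at 45168841 to 45173210 (hg19). It had 490 and 487 counts in WT NPC libraries 3 and 5 and 0 and 0 counts in KO libraries 1 and 2. Both WT libraries were alike at 23.2 and 24.9 CPM, and neither KO library held a read. The WT mean was 24.1 ± 1.22 CPM (SD, n = 2), so that SIX3 was at least 169.9-fold lower in KO NPCs against the floor of 3 counts per library (adjusted p = 6.30e-05). The floor and the fold bound cover counting error alone.

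SIX6, a paralogue of SIX3 used in retina and pituitary, is located on chromosome 14 at 60975864 to 60979568 on the plus strand (hg19). Its counts were 7 and 9 in the WT NPC libraries and 0 and 0 in the KO libraries. The WT mean of 0.396 ± 0.0914 CPM (SD, n = 2) is close to the floor, and the fall was at least 2.80-fold (adjusted p = 0.0443). With DESeq2 the adjusted p of SIX6 was 0.0639, and it was 0.144 without KO library 1 and 0.143 without KO library 2. C14orf39, a gene on the opposite strand whose span covers SIX6, had 25 and 23 counts in WT and 34 and 46 in KO NPCs. Whether featureCounts used strand is not given in the sources used here, so reads from overlapping genes on opposite strands cannot be told apart.

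LHX2, a LIM-homeobox factor of the cortical primordium and optic vesicle, spans 126763949 to 126795580 on the plus strand of chromosome 9 (hg19). The WT NPC libraries held 407 and 568 counts and the KO libraries 8 and 3. Library 5 was the higher of the WT pair, with 29.1 CPM against 19.3 CPM in library 3, and both KO libraries were far below either. The mean fell from 24.2 ± 6.93 to 0.265 ± 0.184 CPM (SD, n = 2 each), that is by 6.50 on the log2 scale (standard error 0.447, adjusted p = 0.000156). LHX2-AS1, an antisense transcript inside the LHX2 span, had 3 and 4 counts in WT and 0 and 0 in KO NPCs and did not pass the test (adjusted p = 0.124).

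OTX1, an orthodenticle factor of forebrain and midbrain, lies at 63277192 to 63284971 on the plus strand of chromosome 2 (hg19). It had 2157 and 1594 counts in WT NPCs and 372 and 592 in KO NPCs. No KO library reached the lower WT library, but both still held 18.4 and 26.7 CPM. The mean fell from 91.8 ± 14.5 to 22.5 ± 5.87 CPM (SD, n = 2 each), or by 2.03 on the log2 scale (SE 0.207, adjusted p = 0.000685).

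OTX2, the paralogue needed for the formation of the head, is encoded on the minus strand of chromosome 14 at 57266623 to 57283411 (hg19). Its counts were 1609 and 990 in WT and 342 and 577 in KO NPCs. The WT libraries differed from each other 1.503-fold in CPM (95% exact interval 1.39 to 1.63, counting error alone) and the KO libraries 1.54-fold (1.34 to 1.76), yet the groups did not overlap. OTX2 fell from 63.4 ± 18.03 to 21.4 ± 6.43 CPM (SD, n = 2 each), that is log2 FC -1.56 (SE 0.263, adjusted p = 0.00504). OTX2-AS1, which overlaps OTX2 on the other strand, held 1 and 3 counts in WT and 0 and 3 in KO NPCs.

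PAX6, a paired-box factor of cortical radial glia and of the eye, is found on the minus strand of chromosome 11 at 31806327 to 31839509 (hg19). It had 1857 and 1533 counts in WT NPCs and 518 and 928 in KO NPCs. KO library 2 held 1.63-fold the CPM of KO library 1 (95% exact interval 1.47 to 1.82, counting error alone), and it was still below both WT libraries. The mean fell from 83.2 ± 6.68 to 33.7 ± 11.5 CPM (SD, n = 2 each), the smallest fall among the called members (log2 FC -1.30, standard error 0.224, adjusted p = 0.00555). Without KO library 1 the log2 FC was -0.99, short of the FC threshold. ELP4, whose last part overlaps the PAX6 span on the opposite strand, also fell (1010 and 850 counts in WT, 443 and 525 in KO, log2 FC -1.004, adjusted p = 0.00237).

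EMX2, a factor of the caudal and medial cortex, lies on the plus strand of chromosome 10 at 119301956 to 119309057 (hg19). It had 500 counts in WT NPC library 3 and 80 in library 5, against 67 and 32 in the KO libraries. The WT libraries differed 5.78-fold in CPM (95% exact interval 4.56 to 7.41, counting error alone), and the lower WT library, at 4.10 CPM, was close to the higher KO library, at 3.31 CPM. The means of 13.9 ± 13.8 and 2.38 ± 1.32 CPM (SD, n = 2 each) gave an estimated -2.55 on the log2 scale with a standard error of 0.792, which just missed the threshold (adjusted p = 0.0502). The call depended on the setting, with an adjusted p of 0.0406 when scaled by library size alone, 0.0457 with no filter beyond 1 count and 0.0126 with all 10 libraries in one fit. Without WT library 3 the log2 FC was -0.79 (adjusted p = 0.137), and without WT library 5 it was -3.34 and called.

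EMX2OS, the antisense transcript that overlaps the start of EMX2, showed the same split between the WT libraries, with 244 and 53 counts (4.26-fold, 95% exact interval 3.15 to 5.84). It had 13 and 8 counts in the KO libraries and was called lower (log2 FC -3.83, standard error 0.758, adjusted p = 0.00992). LMX1A, a dorsal midline factor from the list of midbrain, hindbrain and cord genes, also had more counts in WT library 3 than in library 5 (1534 and 244). POU3F2, a neural POU factor, had fewer (823 and 2710).

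HESX1, a repressor of the anterior plate and pituitary placode, is annotated on the minus strand of chromosome 3 at 57231866 to 57261634 (hg19). Its counts of 8 and 12 in WT and 5 and 6 in KO NPCs were low throughout. The means were 0.496 ± 0.167 and 0.259 ± 0.0165 CPM (SD, n = 2 each), and the difference of -0.92 on the log2 scale (SE 0.761) did not pass the test (adjusted p = 0.414). RAX, the earliest eye-field gene, at 56934267 to 56941318 on the minus strand of chromosome 18 (hg19), has no row in the NPC table and 0 counts in all 6 HEK293T libraries. The WT NPCs thus held ample SIX3, LHX2, OTX and PAX6 reads, while SIX6 and HESX1 stood near the floor.

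**Figure D2:**
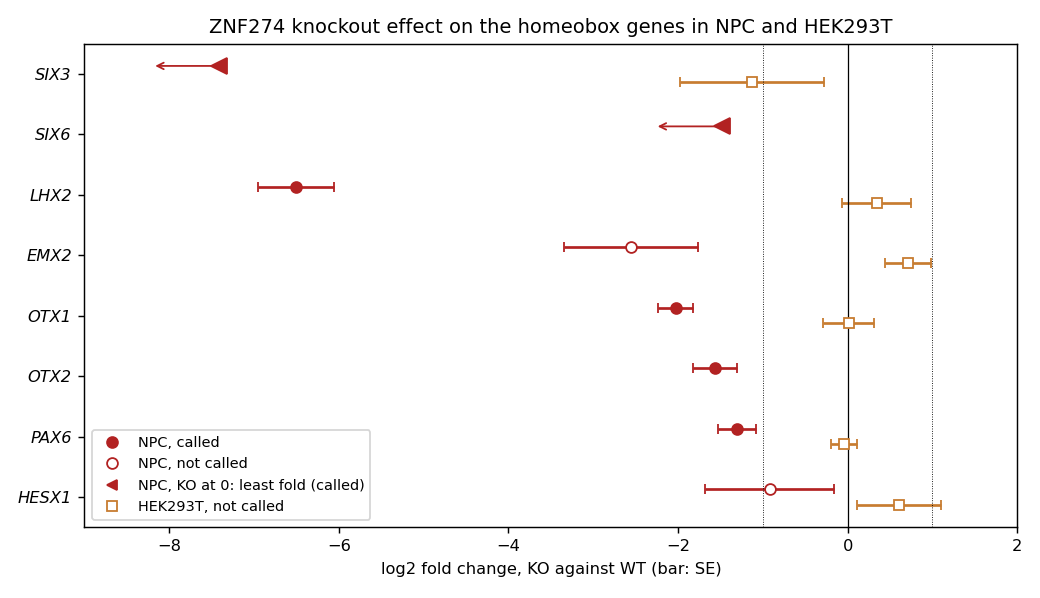
Log2 fold change of KO against WT with its standard error, for NPCs (red) and HEK293T cells (orange). Filled symbols passed the test, triangles with arrows mark the least fold where both KO libraries had 0 counts, and dotted lines mark an FC of 2. The 6 filled NPC symbols lie left of the line at -1, and no HEK293T symbol is filled.

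The members were ordered in each group by CPM per kb of exon, with the union of all annotated exons as the length. This compares levels between genes only roughly, since the order depends on the annotated lengths. In WT NPCs the level per kb was 19.004 ± 3.002 for OTX1 and 18.7 ± 5.30 for OTX2 (SD, n = 2), and the ranges of this pair overlapped. LHX2 (9.68 ± 2.78) and SIX3 (8.87 ± 0.451) followed with overlapping ranges, then EMX2 (4.26 ± 4.24) and PAX6 (4.03 ± 0.323), also overlapping. HESX1 at 0.333 and SIX6 at 0.153 per kb came last. PAX6 had the second highest count of reads but a union exon length of 20639 bases, which lowers its level per kb. Its place in the order and its share of summed levels therefore rest on that annotated length. In KO NPCs the order was OTX2 (6.31 ± 1.89), OTX1 (4.66 ± 1.21), PAX6 (1.63 ± 0.556), EMX2 (0.728 ± 0.405), HESX1 (0.173 ± 0.0110) and LHX2 (0.106 ± 0.0736), with SIX3 and SIX6 at 0. The ranges of OTX2 and OTX1 again overlapped.

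Summed over the 8 members, the level per kb was 71.7 and 58.3 in WT libraries 3 and 5 and 11.4 and 15.9 in KO libraries 1 and 2. OTX1 and OTX2 made up 29.5% and 31.3% of the sum in library 3 and 28.97% and 25.6% in library 5. In the KO libraries they made up 33.5% and 43.8% in library 1 and 34.8% and 48.2% in library 2, since LHX2 and SIX3 had dropped out. PAX6 went from 5.94% and 6.52% of the sum in WT to 10.9% and 12.8% in KO libraries. These shares describe how unequal the falls were.

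**Figure D3:**
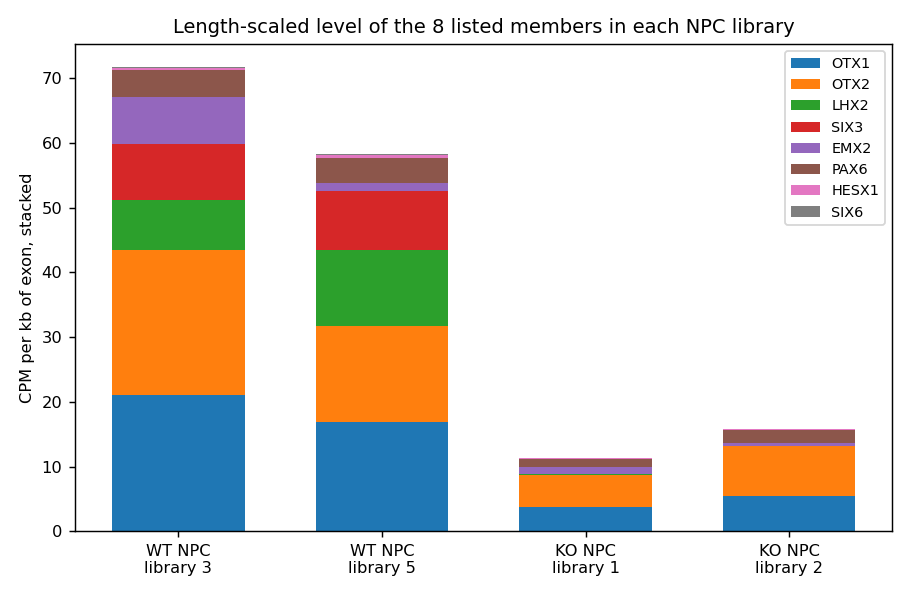
Stacked CPM per kb of exon for the 8 listed members in the 4 NPC libraries. The bars reach 71.7 and 58.3 in WT and 11.4 and 15.9 in KO, and the green (LHX2) and red (SIX3) blocks present in both WT bars are nearly or wholly missing from the KO bars.

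In HEK293T cells the same deletion went with no called member. PAX6 had the most counts of the members, not scaled for length, with 849, 926 and 881 in WT and 610, 939 and 849 in KO libraries. Its means of 30.02 ± 1.77 and 29.1 ± 2.55 CPM (SD, n = 3 each) differed by -0.05 on the log2 scale (SE 0.152, adjusted p = 0.962). OTX1 had 84, 82 and 79 counts in WT and 45, 89 and 98 in KO libraries, which gave 0.01 on the log2 scale (SE 0.302, adjusted p = 0.994). LHX2 had 50, 76 and 54 counts in WT and 97, 49 and 55 in KO, and the high KO value came from library 18, the shallowest of the 6 (log2 FC 0.34, standard error 0.406, adjusted p = 0.897).

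EMX2 was the one member whose groups did not overlap in HEK293T cells, with every KO library above every WT library, as for 7.16% of the genes tested. It held 66, 83 and 91 counts in WT and 105, 123 and 134 in KO libraries, or 2.71 ± 0.457 and 4.46 ± 0.625 CPM (SD, n = 3 each). The log2 FC of 0.71 (standard error 0.270) had an unadjusted p of 0.0231 and an adjusted p of 0.621. SIX3 stood at 3, 13 and 8 counts in WT and 1, 2 and 7 in KO libraries, and HESX1 at 8, 25 and 18 against 28, 25 and 18, and neither passed (adjusted p = 0.829 and 0.839). By edgeR's test 0 of 6 members were called, where 0.489% of 19018 genes were, and 1 of 6 had an unadjusted p below 0.05, where 7.12% of genes did. DESeq2 and voom also called 0 of 6, with 1 of 6 at that unadjusted level.

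An interaction term over the 10 libraries asked whether the deletion acted differently in NPCs and HEK293T cells, for members with reads in both. It was called for 5 of 6 members, in each case with the more negative effect in NPCs, where 6.22% of 19255 genes were called in that direction and 12.2% in either. LHX2 differed by -6.82 on the log2 scale (standard error 0.734, adjusted p = 0.000116), OTX1 by -2.02 (0.353, 0.00269), EMX2 by -3.25 (0.816, 0.0189) and PAX6 by -1.24 (0.278, 0.0108). EMX2 lost its call without WT NPC library 3 (-1.48, adjusted p = 0.132), without KO NPC library 2 (0.0958) and with voom (0.0683), and PAX6 lost it without KO NPC library 1 (-0.92, 0.0533). At an adjusted p below 0.01 the count was 3. SIX3 passed as well (adjusted p = 0.000932), with a fitted difference that depends on the 0 counts in KO NPCs. HESX1 did not pass, at -1.51 (standard error 0.868, adjusted p = 0.277). For OTX2, with 0 counts in all HEK293T libraries, no difference could be estimated. The interaction shares the WT and KO libraries with the comparisons above and is not separate support for them.

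Unperturbed NPCs and HEK293T cells differed in most members. In the fit over 10 libraries 6 of 7 members were higher in WT NPCs, where 25.2% of genes were called higher and 40.7% in either direction. OTX2, at 0 in HEK293T cells, was at least 627-fold higher in WT NPCs. On the log2 scale SIX3 was higher by 6.45 (SE 0.525, adjusted p = 1.39e-06), OTX1 by 5.06 (0.261, 1.80e-08), LHX2 by 3.57 (0.428, 1.79e-05), EMX2 by 2.36 (0.550, 0.00278) and PAX6 by 1.48 (0.193, 3.51e-05). HESX1 was at -0.22 (standard error 0.592, adjusted p = 0.777). Without WT NPC library 3 the log2 FC of EMX2 was 0.60 and was not called (adjusted p = 0.300). The cell types were sequenced and counted in separate tables, so cell type and table cannot be told apart here. After the deletion LHX2 in NPCs, at 0.106 CPM per kb, was below its level in KO HEK293T cells of 1.04 ± 0.579 per kb, values normalized in separate tables and not tested against each other.

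From a list of forebrain transcription factors outside the group, 15 of the 24 tested were called lower and 0 higher, beside 8.36% and 8.45% of all tested genes (median log2 FC -4.94, or -2.45 when genes with a group at the floor take that floor as their value, against -0.02 for all genes). FEZF2, a zinc finger factor of the anterior forebrain, had 925 and 1109 counts in WT and 2 and 0 in KO NPCs. Its relative FEZF1 had 655 and 632 against 4 and 2 (log2 FC -7.75, adjusted p = 2.82e-05). DMRTA2, a factor of cortical progenitors, had 1340 and 1476 against 12 and 9 (-7.11, 1.90e-05).

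POU3F3, a POU factor of upper cortical layers, fell from 705 and 707 counts to 10 and 6 (log2 FC -6.50, adjusted p = 3.28e-05). NR2F1, a nuclear receptor of the caudal cortex, fell less (4745 and 3985 against 724 and 444, -2.94, 0.000383). Its relative NR2F2 did not pass, with 3493 and 1969 counts in WT and 2389 and 2370 in KO (adjusted p = 0.450). ZIC1 with 3597 and 4065 against 3329 and 3281 counts (adjusted p = 0.161) and MEIS2 with 252 and 243 against 310 and 198 (adjusted p = 0.986) did not pass either. DLX1 (9 and 2 against 32 and 15 counts, adjusted p = 0.107) and LHX6 (6 and 0 against 16 and 8, adjusted p = 0.266) had both KO libraries above both WT libraries and did not pass. NR2F2, ZIC1, MEIS2, DLX1 and LHX6 were named after their values were seen.

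Eye factors outside the group moved both ways in NPCs. Of 19 tested, 4 were called lower and 5 higher, beside 8.36% and 8.45% of all tested genes, and the median log2 FC was -0.16. SFRP2, a secreted WNT antagonist of the anterior plate and optic vesicle, fell from 4489 and 5280 to 304 and 324 counts (log2 FC -4.03, adjusted p = 2.41e-05). SIX4, a SIX3 paralogue of muscle and placodes, rose from 210 and 159 to 624 and 598 (log2 FC 1.67, adjusted p = 0.00104), SIX2 from 13 and 1 to 90 and 117 (3.81, 0.00831), while SIX5 fell from 522 and 684 to 130 and 201 (-1.95, 0.00184). MITF, the master factor of pigment cells, rose from 26 and 28 to 191 and 234 counts (2.90, 0.000604). Among these paralogues, therefore, SIX3, SIX6 and SIX5 were called lower and SIX2 and SIX4 higher in KO NPCs.

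Proteins that work with the members were tested as a further list of cofactors, in which 5 of 20 were called lower and 0 higher (median log2 FC -0.95), beside 8.36% and 8.45% of all tested genes. LMO3, which competes for the LIM-domain cofactor used by LHX2, had 499 and 300 counts in WT and 0 and 0 in KO NPCs, at least 138-fold lower (adjusted p = 0.000184). LDB2, a cofactor of LIM-homeobox proteins, fell from 268 and 198 to 46 and 52 counts (log2 FC -2.30, adjusted p = 0.00113), whereas LDB1 had 1538 and 1873 against 1554 and 1576 counts and did not pass (adjusted p = 0.395). MEIS1, a homeobox factor of the developing eye and nervous system, fell from 89 and 143 to 5 and 6 (-4.44, 0.000888). EYA4, a transcriptional coactivator of eye and ear, fell from 374 and 67 to 12 and 19 (-3.85, 0.0112), again with a wide gap between the WT libraries, and LMO4 from 1800 and 1004 to 723 and 721 (-1.003, 0.0178). The count of this list was the least steady, at 3 with voom and 9 with library size alone. LDB1 was named after its values were seen.

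Factors of more posterior neural tissue showed no common direction. Of 19 midbrain, hindbrain and spinal cord factors tested, 3 were called lower and 3 higher (8.36% and 8.45% over all genes), with a median log2 FC of -0.03. PAX3, a dorsal neural tube and neural crest factor, rose from 3 and 15 to 882 and 1145 counts (log2 FC 6.72, adjusted p = 0.000148), LMX1B from 6 and 14 to 269 and 253 (4.62, 0.000438) and PAX5 from 6 and 6 to 51 and 19 (2.49, 0.0376). WNT1, a midbrain boundary signal, had 89 and 68 counts in WT and 0 and 0 in KO, at least 27.2-fold lower (adjusted p = 0.000846). DBX1, a factor of spinal cord progenitors, had 37 and 47 against 0 and 0, at least 14.7-fold lower (0.00242), and LMX1A fell from 1534 and 244 to 47 and 28 (-4.58, 0.00706).

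Among secreted head organiser and anteriorising signals, 2 of 8 were called lower and 1 higher (8.36% and 8.45% over all genes), and the median log2 FC was 0.00. FST and NOG, antagonists of activin and of BMP, fell from 233 and 455 to 15 and 12 counts (log2 FC -4.74, adjusted p = 0.000575) and from 264 and 103 to 9 and 8 (-4.45, 0.00137). DKK1, a WNT antagonist, rose from 149 and 35 to 876 and 1445 (3.603, 0.00309). In HEK293T cells 0 genes of these 5 lists were called by edgeR, DESeq2 or voom. By edgeR 1 of 25 forebrain, 0 of 19 eye, 1 of 20 partner, 1 of 16 posterior and 0 of 7 signal genes had an unadjusted p below 0.05. Over all genes tested in HEK293T cells, edgeR called 0.489%, and 7.12% had such an unadjusted p.

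**Figure D4:**
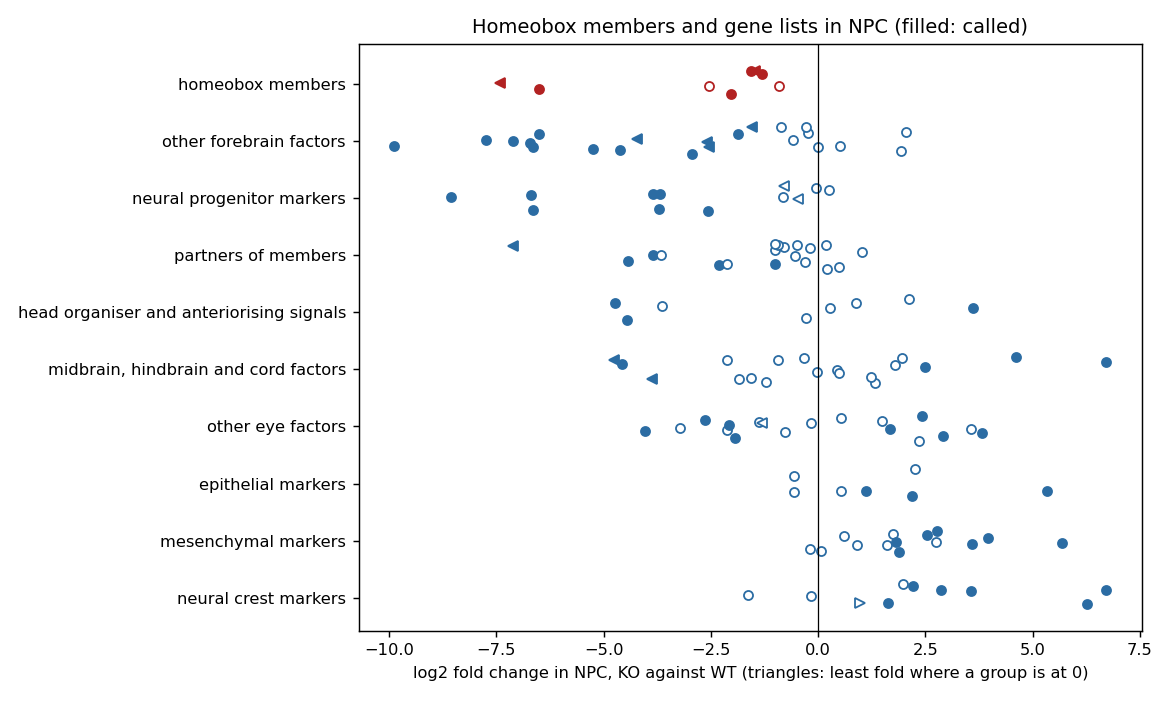
Log2 fold change in NPCs of each tested member (red) and of genes of the lists that are reported here (blue). Filled symbols passed the test and triangles mark the least fold where a group had 0 counts. The forebrain factors and neural progenitor markers lie mostly left of 0, the eye factors and posterior factors spread to both sides, and the filled mesenchymal, neural crest and epithelial markers lie to the right.

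Lists of cell type markers were counted in the same way. Of 12 neural progenitor markers tested, 7 were called lower and 0 higher, and the shares over all genes were again 8.36% and 8.45%. SOX2 fell from 4794 and 4281 to 258 and 469 counts (log2 FC -3.72, adjusted p = 0.000107), FABP7 from 3806 and 7574 to 69 and 47 (-6.69, 0.000147) and SOX1 from 154 and 989 to 1 and 2. NES did not pass, with 47831 and 58533 counts in WT and 64447 and 68537 in KO (adjusted p = 0.231). Through NES the summed level of these markers overlapped between the groups, at 3511 to 4786 CPM in WT and 3578 to 3646 CPM in KO NPCs. SOX1 and NES were named after their values were seen. With SOX1 at 1 and 2 counts, the KO cultures nearly lacked this marker of the neural lineage. Its WT libraries were themselves far apart, at 154 and 989 counts.

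Of 14 mesenchymal markers, 7 were called higher and 0 lower (for this and the next lists, 8.45% and 8.36% over all genes), and their summed level went from 2444 to 3065 CPM in WT to 8823 to 9713 CPM in KO NPCs, with TWIST2 at 0 in all 4 libraries. Of 10 neural crest markers, 6 were called higher and 0 lower (52.6 to 112 CPM against 316 to 417 CPM), and FOXD3 was at 0 in both WT libraries. Of 7 epithelial markers, 3 were called higher and 0 lower (348 to 601 CPM against 1321 to 1479 CPM). Of 7 retinal pigment and lens markers, 2 were called higher and 0 lower (9.62 to 12.4 CPM against 13.2 to 20.7 CPM). Of 5 pluripotent markers, 2 were called lower and 1 higher (208 to 243 CPM against 80.9 to 94.6 CPM), and POU5F1 has no row in the NPC table. PAX3 is on both the posterior and the neural crest list. WT NPC cultures already expressed mesenchymal genes such as COL1A2 (27816 and 11520 counts), which was named after its values were seen. The part of such cells in the fall of the homeobox genes was not tested.

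The genes around each member were examined to 500000 bases on either side. In NPCs 68 were tested, of which 13 were called lower and 6 higher, a total of 19 where 16.8% of all genes were called in either direction. In HEK293T cells edgeR, DESeq2 and voom called 0 of 55, and 2 of 55 had an unadjusted p below 0.05 in each, where by edgeR 0.489% of all genes were called and 7.12% had such a p. Within 100000 bases 8 of 23 were called lower and 2 higher in NPCs, beside 8.36% and 8.45% of all tested genes.

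The strip next to SIX3 held the most falls. LINC01833, a noncoding gene starting upstream of SIX3 on the opposite strand, had 667 and 775 counts in WT and 1 and 0 in KO NPCs (adjusted p = 3.28e-05). SIX3-AS1, which overlaps the 5′ end of SIX3, had 26 and 39 against 0 and 0, at least 11.4-fold lower (0.00422). ENSG00000225156, a noncoding gene 8593 bases downstream, had 47 and 53 against 0 and 0, at least 17.4-fold lower (0.00171). SIX2, 59111 bases from SIX3, went the other way, as given above. The protein-coding neighbours SRBD1 (1247 and 1141 against 877 and 928 counts) and CAMKMT (115 and 105 against 107 and 130) were not called.

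Next to SIX6, its paralogue SIX4 was called higher at a distance of 196689 bases. ENSG00000258670, a noncoding gene 2269 bases from SIX6, had 22 and 29 counts in WT and 0 and 7 in KO (adjusted p = 0.0704). EHBP1-AS1, 1417 bases from OTX1 on the opposite strand, fell from 476 and 330 to 30 and 54 counts (log2 FC -3.32, adjusted p = 0.000502), while EHBP1, 3570 bases away, did not pass (1338 and 1156 against 1333 and 1482, adjusted p = 0.499). IL17RD, 27532 bases from HESX1 and an inhibitor of FGF signalling, fell from 7343 and 10313 to 1792 and 1848 (-2.35, 0.000324), and APPL1, 120 bases from HESX1, did not (1507 and 1352 against 1466 and 1777, adjusted p = 0.489). DENND1A, 71518 bases from LHX2, fell from 1078 and 1236 to 469 and 586 (-1.20, 0.00191).

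**Figure D5:**
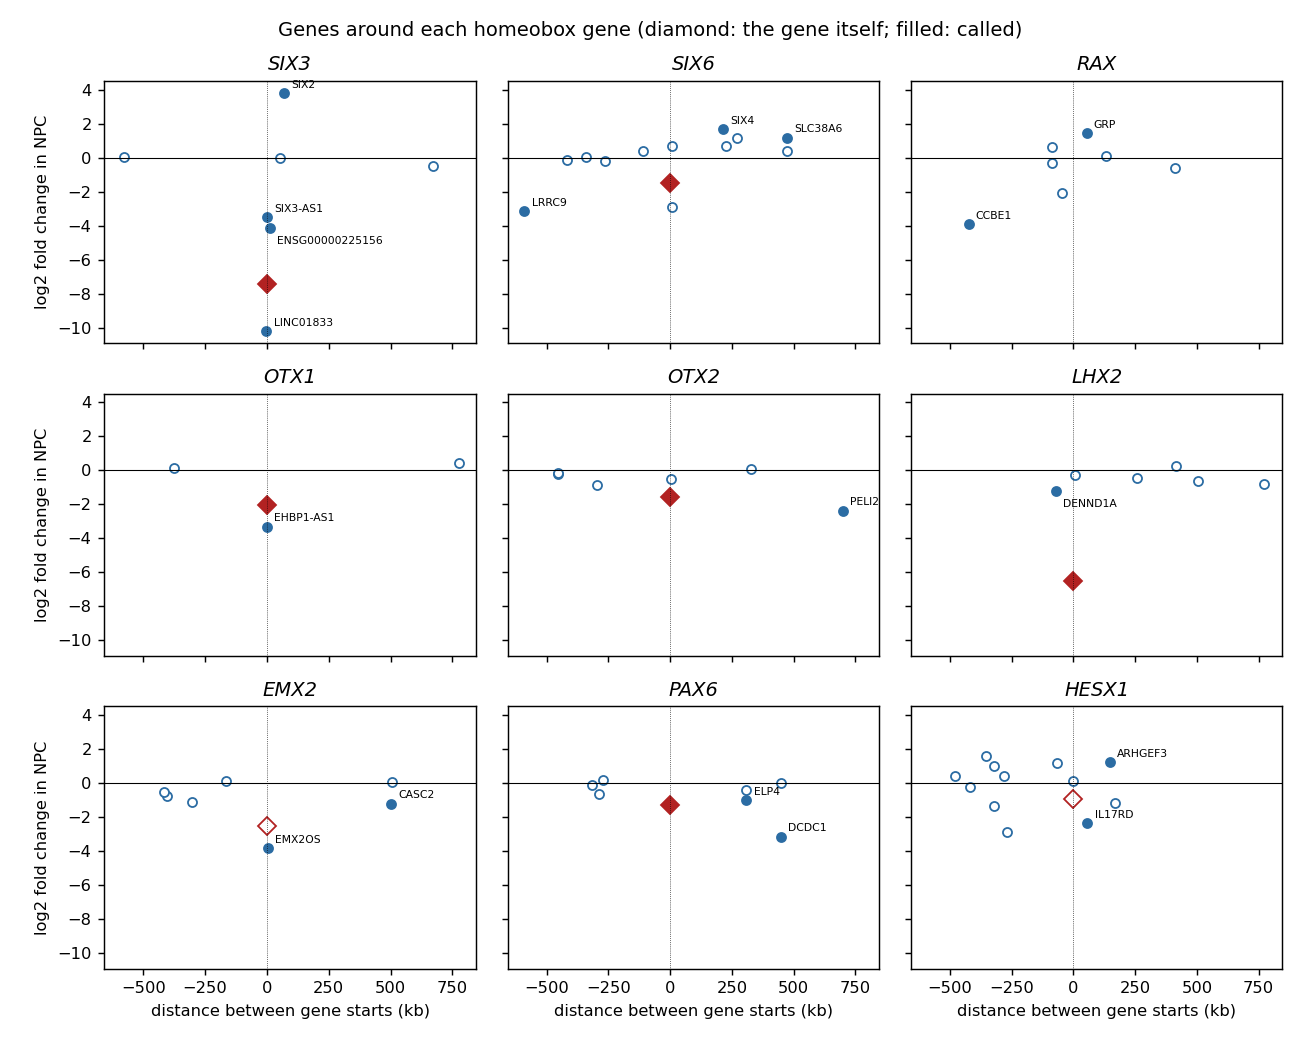
Log2 fold change in NPCs of tested genes within 500000 bases of a member, against the distance between its start and the start of the member in kb (positive is downstream). The red diamond is the member, filled symbols passed the test, called neighbours are labelled, and genes with 0 counts in a whole group are drawn at their least fold. Around SIX3 and SIX6 called genes lie on both sides of 0, with SIX2 and SIX4 above.

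The genes whose profile over the 10 libraries was most like that of a called member were found among 19664 genes, by the root mean square difference of centred log2(CPM + 0.5). SIX6, which has no row in the HEK293T table, was left out. For SIX3 they were NPY2R and GRM3, receptors for neuropeptide Y and glutamate (differences of 0.286 and 0.301). Both held 0 counts in KO NPCs, as SIX3 did (458 and 366, and 408 and 444, in WT). For LHX2 they were NELL2 (0.399) and USP44 (0.507), for OTX1 they were TMEM132C (0.240) and LDB2 (0.250), and for OTX2 they were CPXM1 (0.305) and EFS (0.349). PAX6 was nearest to DLEC1 (0.104) and MIR135A2 (0.106), both with 23 counts or fewer in every library, so its likeness rests on low values. The likeness is a description of these libraries, which share depth and cell type.

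RefSeq promoters (GRCh38.p14, from 250 bases before to 50 bases after each start) matched 8 of the 9 members. They were searched on both strands for TAATTA, a homeodomain core sequence, for TAATCC, the sequence preferred by OTX-type homeodomains, and for CACGTG, an E-box. Of 35116 promoters of this length, 4.84% held TAATTA, 6.36% TAATCC and 7.26% CACGTG. The OTX1, LHX2, SIX6 and RAX windows and both OTX2 and all 9 PAX6 windows held none of the 3, EMX2 held 1 TAATTA, and HESX1 held 2 TAATTA and 1 CACGTG at its second start. CG dinucleotides numbered 30 in the LHX2 window, 34 in OTX1, 23 in SIX6 and 21 in EMX2, against a median of 14 over all promoters, and 9 and 6 at the OTX2 starts. The RAX window held 20, the HESX1 starts 43 and 3, and the PAX6 starts from 5 to 32. The LHX2 window is shown as that of the member with the lowest CPM per kb among those still detected in KO NPCs, and the others for their matches in capitals. LHX2 is at chr9:124011518-124011817 on the plus strand, EMX2 at chr10:117542496-117542795 on the plus strand and the second start of HESX1 at chr3:57199929-57200228 on the minus strand.
LHX2: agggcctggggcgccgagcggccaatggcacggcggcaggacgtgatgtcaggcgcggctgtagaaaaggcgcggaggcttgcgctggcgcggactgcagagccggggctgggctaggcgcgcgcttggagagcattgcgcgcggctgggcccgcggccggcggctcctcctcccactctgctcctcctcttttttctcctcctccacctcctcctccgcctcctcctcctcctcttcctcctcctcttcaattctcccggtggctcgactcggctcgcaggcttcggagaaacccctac
EMX2: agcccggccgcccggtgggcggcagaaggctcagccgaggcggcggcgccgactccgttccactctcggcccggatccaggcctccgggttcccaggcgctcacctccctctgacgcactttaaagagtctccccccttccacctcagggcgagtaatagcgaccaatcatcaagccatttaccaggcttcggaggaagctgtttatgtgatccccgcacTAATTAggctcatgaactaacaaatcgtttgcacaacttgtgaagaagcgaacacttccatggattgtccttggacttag
HESX1: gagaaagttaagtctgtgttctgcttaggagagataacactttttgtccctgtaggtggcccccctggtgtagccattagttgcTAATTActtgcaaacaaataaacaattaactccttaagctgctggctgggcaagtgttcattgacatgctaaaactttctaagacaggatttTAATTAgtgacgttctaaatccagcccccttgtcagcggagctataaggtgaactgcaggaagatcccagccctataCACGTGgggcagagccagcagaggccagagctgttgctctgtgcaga
A match is not a bound site, and the absence of a match says only that these letters are not in these 300 bases.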

How the data were processed

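RNA-seq was analysed from 10 libraries. According to the labels and the methods of the study, stranded mRNA reads were mapped to hg19 with HISAT2 and uniquely mapped reads were counted with featureCounts. Versions are not given in the sources used here. The authors deposited a table of raw counts per gene for each cell type, without normalization. Differential expression was tested with edgeR 4.0.16 in R 4.3.3 (TMM, quasi-likelihood test, Benjamini-Hochberg adjustment over all genes tested), within each cell type, for genes with a total count of at least the number of libraries. The study used voom, which was run as an alternative. Calls required an adjusted p below 0.05 together with an FC above 2. An interaction and the WT comparison were fitted over all 10 libraries. The scripts were tested on simulated data. Coordinates came from GENCODE release 44 lifted to hg19, in which 23273 of 24050 identifiers were found, and 9 genes of the lists are in neither table. No protein sequences were used.

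The members and gene lists were chosen with earlier results of these data known. Named genes were the members, noncoding genes within 5000 bases of one, up to 6 called genes per list with the smallest adjusted p, defining markers at 0, and the 2 nearest profiles of each called member listed in both tables. Neighbours beyond these were named after their values were seen. Alternatives were DESeq2 1.42.0, voom (limma 3.58.1), other scalings, filters and thresholds, and each library left out in turn. Some items are not reported here.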

Additional observations from a re-analysis of the deposited data

Results flagged for a closer look

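The KO effect on 5 members differed between NPCs and HEK293T cells by the interaction term of the 10-library fit (edgeR, adjusted over 19255 genes). The difference of the effects, NPC minus HEK293T on the log2 scale, was -11.13 for SIX3, -6.82 for LHX2, -3.25 for EMX2, -2.02 for OTX1 and -1.24 for PAX6. The value for SIX3 is a fitted one that depends on 0 counts in both KO NPC libraries and is not a bound. For EMX2 the difference was -1.48 without WT NPC library 3 (adjusted p = 0.132) and -2.77 without KO NPC library 2 (adjusted p = 0.0958), and for PAX6 it was -0.92 without KO NPC library 1 (adjusted p = 0.0533). In both cell types 2 or 3 libraries stand for each group, and the groups are too small for single libraries to be tested as outliers.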

How the results depend on the processing

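The count of members called in NPCs was 6 and ranged from 4 to 7 when a library was left out, in HEK293T cells it was 0 throughout, for the interaction 5 (4 to 5) and between WT cell types 6 (5 to 6). At an adjusted p below 0.01 the interaction count was 3. No value changed sign among those called. Leaving out an NPC library leaves 1 sample in its group, which is then assumed to vary like the others. SIX6 lost its call in NPCs without either KO library, with DESeq2 and at the stricter threshold, PAX6 without KO library 1, and EMX2 gained one without WT library 5 (log2 FC -3.34) and stood at -0.79 without WT library 3 (adjusted p = 0.137). The interaction of EMX2 lost its call with voom (adjusted p = 0.0683). OTX1 in WT HEK293T cells was at 2.69 CPM by library size alone and 2.77 CPM with TMM. Scaling by library size alone moved the median log2 FC of all genes in NPCs from -0.02 to -0.13.

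Among the lists, 5 partner genes became 3 with voom and 9 with library size alone. Leaving out a library, chosen after seeing the data, gave 5 to 8 partners, 10 to 15 other forebrain factors, 6 to 12 eye factors, 5 to 8 posterior factors, 3 to 5 head organiser signals and 13 to 20 neighbours. The 5 signals came without WT library 3 and the 8 partners without WT library 5. Called neighbours were 19 of 68 tested within 500000 bases, 10 of 23 within 100000 and 34 of 120 within 1000000, where 16.8% of all genes were called. The cause of these shifts was not tested, beyond the number of genes in a window. The paper describes the NPC protocadherin values it plots as averages over parental cell lines. No paired analysis was run, because WT and KO libraries share no replicate numbers and the labels tie no library to a parental line. SIX6 and HESX1 had 12 counts or fewer per NPC library, and depth was not tested apart from the number of replicates.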
